A study of Mus musculus with 24 samples.

Results

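A set of 10 genes that mark border-associated macrophages or monocytes was followed in RNA of microglia sorted from single mouse retinas. The genes, Lyz2, Ccr2, Ms4a4c, Ms4a7, Mrc1, F13a1, Pf4, Folr2, Stab1 and Cd163, were taken by gene symbol from the 47729 gene IDs of the deposited tables, and each was found. The study compared retinal microglia of DBA/2J mice, an inbred strain that develops glaucoma with age, with those of a Gpnmb+ control. The DBA/2J animals were Gpnmb-/- Tyrp1b-/- and the Gpnmb+ animals Gpnmb+/+ Tyrp1b-/-, so that the Tyrp1b allele was shared by all groups, and no animal was treated. At 12 months there were 10 DBA/2J retinas of 5 animals, of which 3 retinas (2 animals) were graded mild, 4 (3 animals) moderate and 3 (2 animals) severe. There were 5 DBA/2J retinas of 5 animals at 6 months, with 1 eye per animal, and 9 Gpnmb+ retinas of 5 animals at 12 months. Cells had been sorted as CD11b+, Ly6c- and Fcrls+, and 100 to 600 cells were collected per retina. Per the labels, the antibody to Fcrls was meant to leave out myeloid cells that had entered the retina from blood.

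Border-associated macrophages are the resident macrophages of the meninges, perivascular spaces and choroid plexus of the central nervous system, and related cells lie around the vessels of the retina and in the ciliary body. They take up debris and protein through scavenger and mannose receptors, and are told from microglia by genes such as Mrc1, Pf4, F13a1 and Ms4a7. Monocytes circulate in blood, enter inflamed tissue by way of the chemokine receptor Ccr2, and can become macrophages there. In RNA of a pool of sorted cells the cell that made a transcript is not known, and fewer cells of a type and less RNA per cell cannot be told apart.

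Library totals ran from 1706775 to 20081114 expected counts in DBA/2J at 12 months, from 12043911 to 17993059 in DBA/2J at 6 months and from 977886 to 14845311 in Gpnmb+. Fewer than 10000 genes were detected in 5 of the 9 Gpnmb+ retinas and in no DBA/2J retina, so a 0 in a Gpnmb+ retina carries less weight. A count of 0 allowed a level of up to 0.149 CPM (counts per 1000000 of the library total) in the deepest retina and up to 3.07 CPM in the shallowest. This limit covers counting error only. Against the labelled cell type, 15 microglia markers summed to between 15932 and 43529 CPM, more in each retina than any other marker list. Of the genes used for the sort, Itgam (CD11b) had a count in 24 of 24 retinas and Fcrls in 18, at a median of 19.0 CPM. Ly6c1 had no count in any retina, and Ly6c2 had a count in 1. Gpnmb had a count in 1 of 9 Gpnmb+ retinas and in no DBA/2J retina, which is too sparse to check the genotype label of single libraries, and Tyrp1 had none.

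The markers fell into a part found in nearly every retina and a part found in some retinas and missing in others. Lyz2, Ccr2 and Stab1 each had a count in 23 of 24 retinas, Folr2 in 19 and Ms4a4c in 16. Mrc1 was found in 14 retinas, Ms4a7 in 13, Pf4 in 11, F13a1 in 10 and Cd163 in 7. A 12-month DBA/2J retina held between 4 and 10 of the 10 markers, with a median of 7.5. A 6-month DBA/2J retina held 6 to 10 with a median of 6, and a Gpnmb+ retina 2 to 8 with a median of 6. In the 4 Gpnmb+ retinas with at least 10000 genes the range was 6 to 8 and the median 7.5, equal to that of 12-month DBA/2J. Markers that were patchy between animals were also patchy between the eyes of 1 animal. Among the 9 animals with both eyes sequenced, Cd163 was found in 1 eye of 5 animals and in both eyes of none. Mrc1 was found in both eyes of 3 animals and in 1 eye of 5, and Pf4 in both eyes of 2 and in 1 eye of 5.

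**Figure D1:**
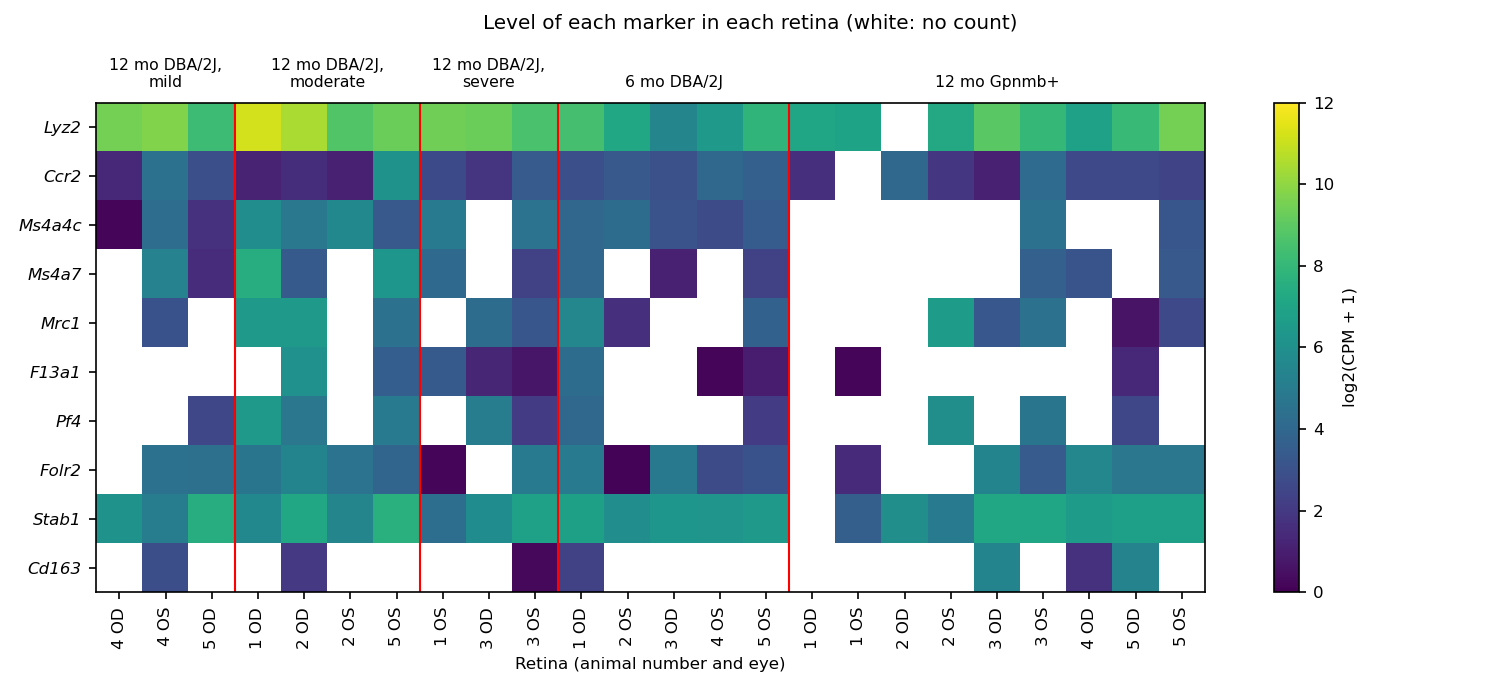
Level of each marker (rows) in each of the 24 retinas (columns, by animal number and eye), as log2(CPM + 1), with white for no count. The groups are 12-month DBA/2J by grade, 6-month DBA/2J and 12-month Gpnmb+, divided by red lines. Lyz2, Ccr2 and Stab1 fill nearly every column, while Mrc1, F13a1, Pf4 and Cd163 leave many columns empty in all groups.

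Lyz2 encodes lysozyme M, an enzyme that breaks bacterial cell walls and that monocytes, macrophages and granulocytes make in quantity. It was the highest of the 10 markers by length-corrected level, with a median deposited TPM of 784 in DBA/2J at 12 months, 196 in DBA/2J at 6 months and 208 in Gpnmb+. Over the 4 Gpnmb+ retinas with at least 10000 genes its median TPM was 347. Lyz2 lies on chromosome 10, at chr10:117277331-117282321 on the minus strand of GRCm38. The bases upstream of its start are shown because it is the marker on which the comparisons of groups turn, and capitals mark the half-site TGCTGA that MAF factors, regulators of macrophage genes, can bind.
Lyz2 upstream, chr10:117282322-117282522, minus strand, GRCm38.p6 (RefSeq): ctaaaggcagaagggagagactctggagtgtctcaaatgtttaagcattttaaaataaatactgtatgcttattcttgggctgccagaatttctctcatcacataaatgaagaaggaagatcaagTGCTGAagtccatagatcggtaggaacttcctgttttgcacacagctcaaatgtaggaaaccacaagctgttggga
The half-site was found on either strand in 4 of 13 upstream windows of the markers and in 16.1% of 32851 windows of 250 bases, so its presence is a description of these letters.

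Lyz2 reads in 12-month DBA/2J retinas ranged from 303 to 2325 CPM, with a median of 655 CPM. In 6-month DBA/2J retinas Lyz2 had 352, 147, 43.4, 90.0 and 229 CPM. In Gpnmb+ retinas it ranged from 0 to 730 CPM, with a median of 148 CPM. The 4 Gpnmb+ retinas with at least 10000 genes had 115 to 730 CPM of Lyz2, with a median of 267 CPM. The lowest 12-month DBA/2J retina was above 4 of the 5 retinas at 6 months and above 7 of the 9 Gpnmb+ retinas. The Gpnmb+ retina with no Lyz2 count was the shallowest library, in which 0 allows up to 3.07 CPM. With the eyes of an animal summed and scaled by TMM, a factor that evens out library composition, the 12-month DBA/2J animals had 1355, 1195, 474, 802 and 459 CPM. The 6-month animals had 321, 140, 40.8, 89.5 and 207 CPM, and the Gpnmb+ animals 172, 111, 361, 112 and 487 CPM. All 5 of the older DBA/2J animals therefore lay above all 5 of the younger ones, whereas 3 of the 5 lay above every Gpnmb+ animal.

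**Figure D2:**
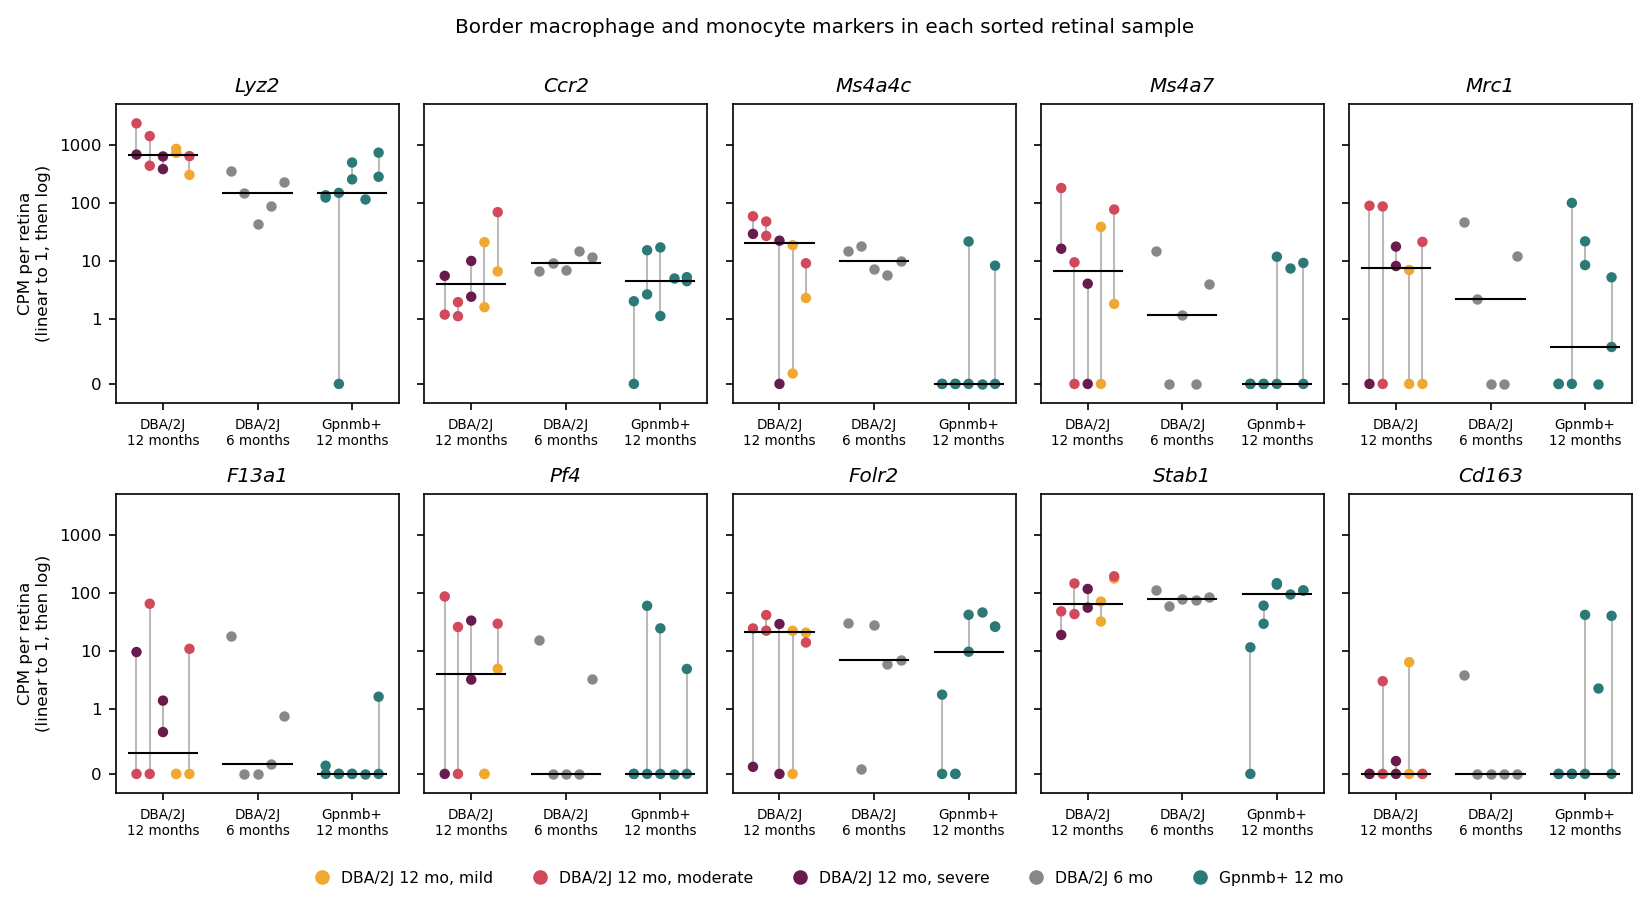
CPM of each marker in each retina, on an axis that is linear up to 1 and logarithmic above, for 12-month DBA/2J (coloured by grade), 6-month DBA/2J and 12-month Gpnmb+. Grey lines join the eyes of 1 animal and black bars are medians over retinas. Lyz2 has a median of 655 CPM in 12-month DBA/2J, against 147 CPM at 6 months and 148 CPM in Gpnmb+. Over the 4 Gpnmb+ retinas with at least 10000 genes its median is 267 CPM. The sparse markers start at 0 within every group.

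Ccr2 and Ms4a4c are markers of monocytes. Ccr2, the receptor for the chemokine Ccl2 that draws monocytes out of the bone marrow, was low throughout. It ranged from 1.13 to 69.3 CPM with a median of 4.01 CPM in 12-month DBA/2J retinas and from 0 to 17.2 CPM with a median of 4.51 CPM in Gpnmb+ retinas. At 6 months Ccr2 had 6.65, 9.33, 6.89, 15.1 and 11.7 CPM. The highest value came from 1 eye, the moderate eye of 12-month DBA/2J animal 5, and the other 9 retinas of that group reached at most 21.1 CPM. Ms4a4c, a member of the membrane-spanning 4-domain family found on monocytes in mice, had a count in 9 of 10 retinas of 12-month DBA/2J, in 5 of 5 at 6 months and in 2 of 9 Gpnmb+ retinas. Among the 4 Gpnmb+ retinas with at least 10000 genes, 2 had a count. Ms4a4c ranged from 0 to 58.8 CPM with a median of 20.6 CPM in 12-month DBA/2J, and the 6-month retinas had 14.7, 17.9, 7.31, 5.84 and 10.1 CPM. The 2 Gpnmb+ retinas with a count had 21.7 and 8.35 CPM.

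Mrc1 encodes the mannose receptor CD206 and Pf4 the chemokine platelet factor 4, and both are used to tell border-associated macrophages from microglia. Mrc1 ranged from 0 to 89.3 CPM with a median of 7.62 CPM in 12-month DBA/2J retinas and from 0 to 99.8 CPM with a median of 0.571 CPM in Gpnmb+ retinas. The 6-month retinas had 46.6, 2.21, 0, 0 and 12.1 CPM. All 3 groups thus overlapped. The eyes of 1 animal could differ as much as the groups did. In 12-month DBA/2J animal 1, Mrc1 was at 89.3 CPM in the moderate eye and 0 in the severe eye, and in animal 2 at 86.9 CPM and 0 in its eyes, both graded moderate. Gpnmb+ animal 2 had 99.8 CPM in the left eye and no count in the right eye. Pf4 ranged from 0 to 86.7 CPM with a median of 4.10 CPM in 12-month DBA/2J and from 0 to 59.9 CPM with a median of 0 in Gpnmb+. The 4 Gpnmb+ retinas with at least 10000 genes had 0 to 21.8 CPM of Mrc1 with a median of 2.91 CPM. For Pf4 these 4 had 0 to 24.6 CPM with a median of 2.46 CPM. At 6 months Pf4 had a count in 2 of 5 retinas, at 15.6 and 3.33 CPM. Both genes were found together in 10 retinas, Mrc1 alone in 4, Pf4 alone in 1, and neither in 9. Pf4 is also a platelet gene. The platelet genes Ppbp and Gp1bb had no count in any retina, and Gp9 had a count in 19.

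The upstream bases of this pair are shown because the genes were found together more often than any other pair of sparse markers. Capitals mark GAGGAA, read as TTCCTC on the other strand, a core of sites for PU.1 and other ETS factors, and, in Pf4, TTGCNNAA, a form of the C/EBP site. The letters do not overlap each other in these windows.
Mrc1 upstream, chr2:14229164-14229391, plus strand, GRCm38.p6 (RefSeq): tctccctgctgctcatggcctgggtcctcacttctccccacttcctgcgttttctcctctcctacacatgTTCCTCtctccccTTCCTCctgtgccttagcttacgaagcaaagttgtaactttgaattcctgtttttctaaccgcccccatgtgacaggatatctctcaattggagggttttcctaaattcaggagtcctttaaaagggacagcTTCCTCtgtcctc
Pf4 upstream, chr5:90772185-90772434, plus strand, GRCm38.p6 (RefSeq): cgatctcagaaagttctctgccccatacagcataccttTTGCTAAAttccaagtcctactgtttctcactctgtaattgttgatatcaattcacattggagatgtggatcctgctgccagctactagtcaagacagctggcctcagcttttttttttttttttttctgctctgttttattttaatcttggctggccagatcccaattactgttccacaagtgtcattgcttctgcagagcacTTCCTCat
GAGGAA was found on either strand 3 times in the Mrc1 window and once in the Pf4 window, in 5 of the 13 windows of the markers and in 23.3% of the 32851 windows. TTGCNNAA was found in the Pf4 window alone among the 13, and in 9.56% of all windows. These matches say nothing of binding.

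The other sparse markers were Ms4a7, F13a1 and Cd163. Ms4a7, a family member of Ms4a4c that border-associated and monocyte-derived macrophages express and resting microglia do not, ranged from 0 to 180 CPM with a median of 6.80 CPM in 12-month DBA/2J. Its highest values were in the moderate eyes of animals 1 and 5, at 180 and 76.9 CPM. In Gpnmb+ retinas Ms4a7 reached at most 11.9 CPM with a count in 3 of 9. Of the 4 Gpnmb+ retinas with at least 10000 genes, 3 had a count, and the median over these 4 was 8.46 CPM. At 6 months Ms4a7 had 14.6, 0, 1.16, 0 and 4.11 CPM. F13a1, the catalytic A subunit of coagulation factor XIII, had a count in 5 of 10 retinas of 12-month DBA/2J, with a highest value of 65.1 CPM in the right eye of animal 2. Its values in the other 4 were 10.9, 9.62, 1.41 and 0.647 CPM. At 6 months F13a1 had 18.0, 0, 0, 0.154 and 0.889 CPM, and in Gpnmb+ it had a count in 2 of 9 retinas, at 1.64 and 0.127 CPM. Cd163, the scavenger receptor for haemoglobin bound to haptoglobin, had a maximum of 6.44 CPM in 12-month DBA/2J and of 41.9 CPM in Gpnmb+. It had a count in 3 of 10 retinas of 12-month DBA/2J, in 1 of 5 at 6 months (3.93 CPM) and in 3 of 9 Gpnmb+ retinas. A single 6-month animal, animal 1, held the highest 6-month value of Ms4a7, Mrc1, F13a1, Pf4 and Cd163 and was 1 of 3 retinas in the series with all 10 markers.

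The uptake receptor Folr2 and the scavenger receptor Stab1 were found in more retinas than the sparse markers. Folr2, the folate receptor beta of tissue macrophages, ranged from 0 to 41.6 CPM with a median of 21.5 CPM in 12-month DBA/2J and from 0 to 46.6 CPM with a median of 9.74 CPM in Gpnmb+. In the 4 Gpnmb+ retinas with at least 10000 genes Folr2 had 9.74 to 46.6 CPM. Their median of 26.3 CPM was above that of 12-month DBA/2J. At 6 months Folr2 had 30.4, 0.0712, 28.1, 5.99 and 7.003 CPM. Stab1, the scavenger receptor stabilin-1, ranged from 18.9 to 193 CPM with a median of 63.3 CPM in 12-month DBA/2J and from 0 to 147 CPM with a median of 95.9 CPM in Gpnmb+. At 6 months Stab1 had 112, 58.3, 78.6, 75.2 and 85.3 CPM. The groups overlapped for both genes.

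In 12-month DBA/2J against 12-month Gpnmb+, the comparison of disease with its genetic control, no gene of 12977 tested passed an adjusted p of 0.05 in edgeR's quasi-likelihood test with Benjamini-Hochberg adjustment (0% of genes, with 676 at an unadjusted p under 0.05), and so none of the 10 markers did. Lyz2 averaged 857 ± 409 CPM in 12-month DBA/2J and 248 ± 168 CPM in Gpnmb+ (SD, n = 5 animals each), a log2 fold change of 1.79 ± 0.52 (SE) with an adjusted p of 0.574 by edgeR. DESeq2 placed Lyz2 just inside the threshold, at an adjusted p of 0.0488. Over the 21 alternatives its fold change stayed between 1.56 and 2.18 and its adjusted p ran up to 0.912. F13a1 averaged 12.3 ± 20.1 CPM in 12-month DBA/2J and 0.170 ± 0.331 CPM in Gpnmb+ (SD, n = 5 animals each), a log2 fold change of 6.01 ± 2.41 with an adjusted p of 0.754 by edgeR and a range of 2.53 to 8.64 over the alternatives. Animal 2 alone had 47.9 CPM, and the Gpnmb+ level rests on 24 counts in all. Lyz2 and F13a1 were the 2 markers higher at an unadjusted p under 0.05, where 2.76% of all genes were. None was lower, where 2.45% of all genes were, and no marker's 5 animals lay wholly above or below those of Gpnmb+, as those of 0.832% and 0.285% of genes did. Ms4a4c had a log2 fold change of 2.62 ± 1.49, Ms4a7 of 2.87 ± 1.73 and Ccr2 of 1.15 ± 1.00. Those of Mrc1 (0.38 ± 1.76), Pf4 (0.44 ± 1.94), Stab1 (0.36 ± 0.57) and Folr2 (-0.10 ± 1.26) were smaller than their standard errors, and Cd163 had -3.33 ± 2.33. In all, 8 of the 10 were positive with a median of 0.79, beside 6808 positive among the 12977 genes and a median of 0.05. The direction of Ccr2, Mrc1, Folr2 and Stab1 turned under at least 1 alternative, so a count of positive markers is a weak description.

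**Figure D3:**
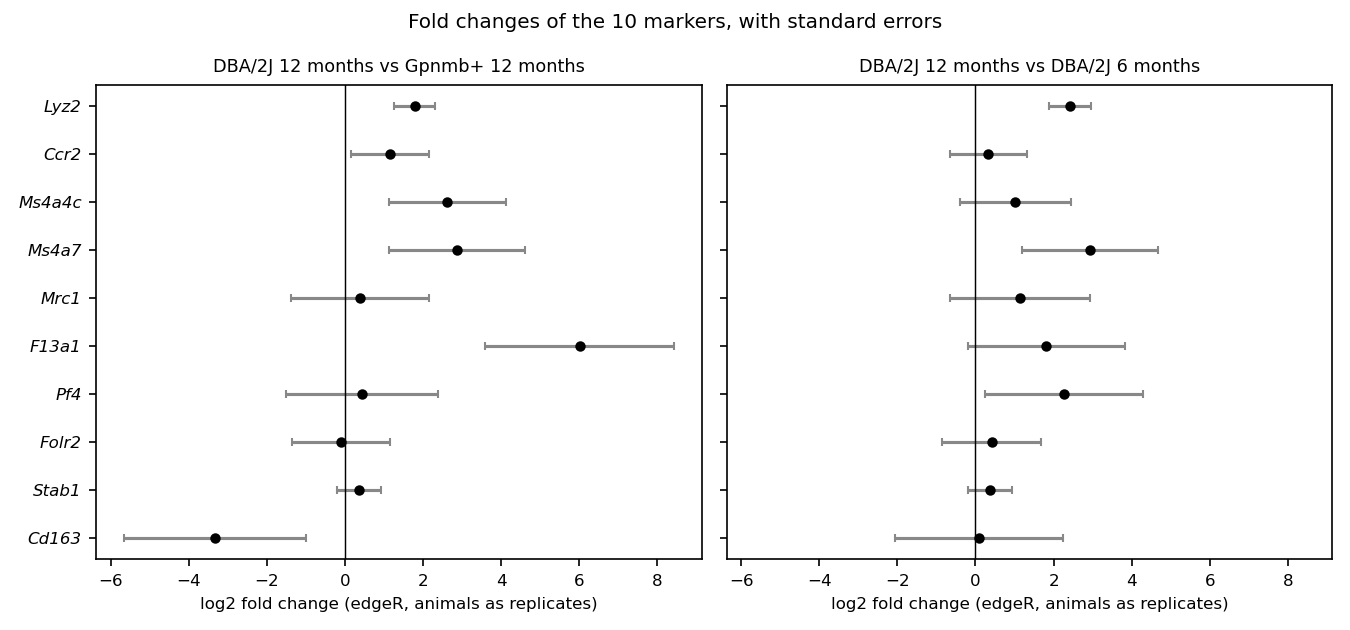
log2 fold changes of the 10 markers with standard errors, from edgeR with 5 animals per group, for 12-month DBA/2J over 12-month Gpnmb+ (left) and over 6-month DBA/2J (right). Lyz2 stands farthest from 0 relative to its error in both panels, at 1.79 ± 0.52 and 2.42 ± 0.54, and the errors of the sparse markers span several log2 units.

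In 12-month against 6-month DBA/2J, the comparison with age in the same strain, again 0% of 12977 genes passed by edgeR, with 474 at an unadjusted p under 0.05. Lyz2 averaged 857 ± 409 CPM at 12 months and 160 ± 109 CPM at 6 months (SD, n = 5 animals each), a log2 fold change of 2.42 ± 0.54 with an adjusted p of 0.383 by edgeR and of 0.000321 by DESeq2. Lyz2 was also the single marker whose animals did not overlap, with 5 of 5 above all 6-month animals, as for 1.43% of all genes, and the single marker at an unadjusted p under 0.05, where 2.10% of genes were higher. No marker was lower at that level or wholly below the younger animals, as 1.55% and 1.02% of genes were. Lyz2 stayed between 2.08 and 2.86 over the 21 alternatives, with an adjusted p of up to 1.00. All 10 markers had positive log2 fold changes, with a median of 1.08 beside 0.01 over all genes. Ms4a7 had the largest at 2.94 ± 1.73, with Pf4 at 2.27 ± 2.03 and F13a1 at 1.82 ± 2.00, and none of these passed the test. The direction of Ccr2, Ms4a4c, F13a1, Folr2 and Cd163 turned under at least 1 alternative. The 12-month group had both eyes of each animal and the 6-month group 1 eye, so the groups differ in how much of each animal was sampled. The share of counts from mitochondrial genes, a sign of RNA quality, was 1.43 to 3.34% in 12-month DBA/2J retinas, of which 8 of 10 lay above every 6-month retina, and 0.641 to 1.49% at 6 months. In Gpnmb+ retinas it was 1.21 to 4.71%, and its part in the difference of Lyz2 was not tested.

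In 6-month DBA/2J against 12-month Gpnmb+, which differ in age and genotype at once, 0% of 12977 genes passed by edgeR, with 489 at an unadjusted p under 0.05. Lyz2 averaged 160 ± 109 CPM in 6-month DBA/2J and 248 ± 168 CPM in Gpnmb+ (SD, n = 5 animals each), a log2 fold change of -0.64 ± 0.51 with an adjusted p of 1.00 by edgeR. Of the markers 3 had positive fold changes (Ccr2, Ms4a4c and F13a1) and 7 negative ones, and none was at an unadjusted p under 0.05, where 2.20% of genes were higher and 1.57% lower. No marker separated the groups, as 0.878% of genes did upward and 0.239% downward. These 3 comparisons share their animals and are not independent of each other.

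The grades of the 12-month DBA/2J eyes were set against Gpnmb+ with eyes of 1 animal and grade summed, which gave 2 mild, 3 moderate and 2 severe sums. The 7 sums came from 5 animals, because the eyes of animals 1 and 5 differed in grade. Within 12-month DBA/2J the highest level of Ms4a7, Mrc1, F13a1 and Pf4 lay in a moderate eye and that of Cd163 in a mild eye. That Cd163 level, 6.44 CPM, rests on 11 counts in the shallowest library of the group. Lyz2 averaged 545 ± 369 CPM in mild (SD, n = 2), 1478 ± 1053 CPM in moderate (SD, n = 3) and 605 ± 183 CPM in severe sums (SD, n = 2), against 246 ± 168 CPM in Gpnmb+ (SD, n = 5). In moderate against Gpnmb+, 0% of 15959 genes passed by edgeR, with 1350 at an unadjusted p under 0.05. Lyz2 had a log2 fold change of 2.59 ± 0.61 and an adjusted p of 0.579 by edgeR, with 0.00410 by DESeq2, 2.85e-09 by edgeR without a filter on low counts and up to 0.961 over the alternatives. Ms4a7 had 4.65 ± 1.82, F13a1 6.67 ± 2.62 and Ms4a4c 3.47 ± 1.60, with adjusted p-values of 0.579, 0.579 and 0.586 by edgeR. These 4 markers were at an unadjusted p under 0.05, where 4.75% of all genes were higher, and 3.71% lower. Lyz2 was the single marker with all 3 moderate sums above every Gpnmb+ animal, as for 2.51% of genes, and none had all sums below, as for 1.13%. Of the 10 markers 9 were positive, with a median of 2.09 beside -0.02 over all genes, and Cd163 was negative.

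**Figure D4:**
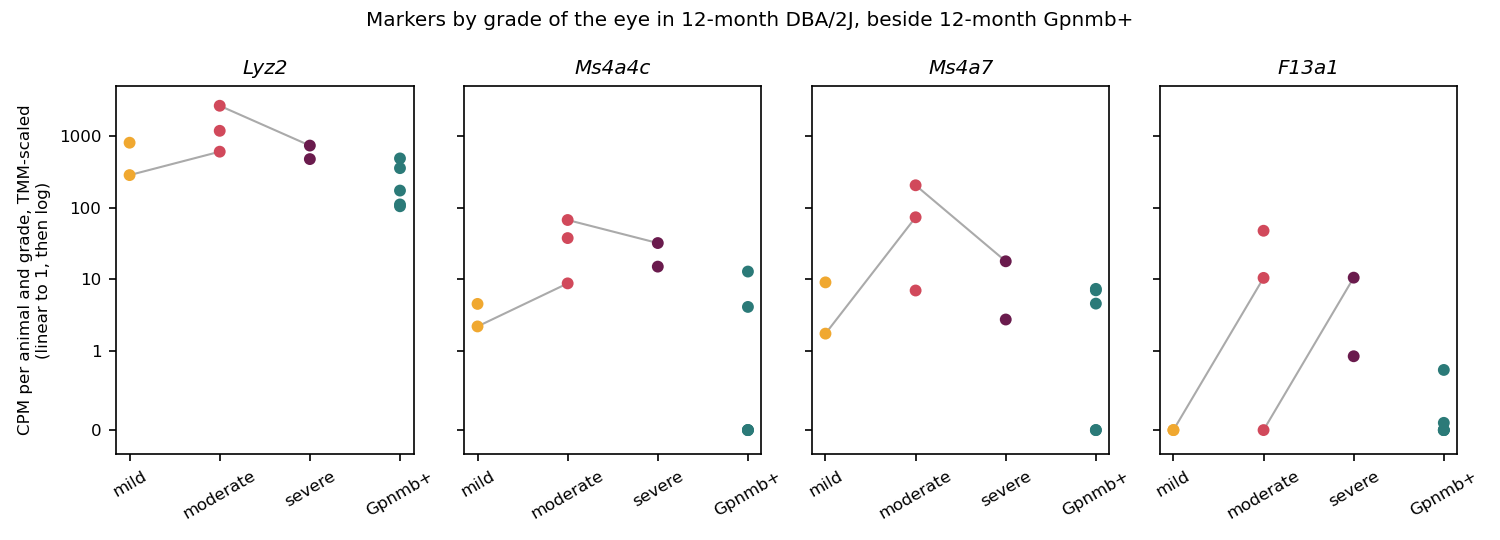
CPM of the 4 markers at an unadjusted p under 0.05 in moderate eyes, per animal and grade and TMM-scaled, in mild, moderate and severe 12-month DBA/2J eyes and in Gpnmb+ animals. The axis is linear up to 1 and logarithmic above, and grey lines join the sums of animals 1 and 5, whose eyes differed in grade. All 3 moderate sums of Lyz2 lie above the Gpnmb+ animals, and the moderate sums of Ms4a7 spread from 6.92 to 205 CPM.

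In mild and severe eyes no marker reached an unadjusted p under 0.05 against Gpnmb+. Lyz2 had a log2 fold change of 1.15 ± 0.67 in mild against Gpnmb+, which ranged from 0.18 to 1.67 with each animal left out, and an adjusted p of 0.795 by edgeR. In severe against Gpnmb+ the fold change ranged from 0.95 to 1.70 with each animal left out, with an adjusted p of 0.982 by edgeR over all animals. In mild eyes 4 of the 10 markers were positive, F13a1 had no count in any of the 3 retinas, and no marker was at an unadjusted p under 0.05, as 2.67% of genes were in the higher and 2.75% in the lower direction. No marker's mild sums lay wholly above or below Gpnmb+, as those of 4.12% and 2.35% of genes did. In severe eyes 5 were positive and again none was at an unadjusted p under 0.05, where 3.08% of genes were higher and 1.20% lower. Both severe sums of Ms4a4c (31.9 and 14.9 CPM) and of F13a1 (10.5 and 0.929 CPM) lay above every Gpnmb+ animal, as for 5.68% of genes, and no marker's lay below, as for 1.47%. No gene passed in the mild, the severe or the trend test by edgeR (0% each), with 865, 683 and 248 genes at an unadjusted p under 0.05. In the trend over grades within 12-month DBA/2J, 7 of the 10 slopes were positive, 1.13% of genes had a positive and 0.717% a negative slope at an unadjusted p under 0.05, and no marker was among them. Grades were not set against each other in any other test. Within the 2 animals with eyes of different grades, the moderate eye was higher than the severe eye in animal 1 for 7 markers and lower for 2, beside 44.3% of genes higher and 55.7% lower among all 14655 with a count in either eye. The moderate eye of animal 5 was higher than its mild eye for 8 markers and lower for 1, beside 56.4% of 16643 genes higher and 43.6% lower.

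Transcripts of rods, the light-sensing cells that make up most of the mouse retina, were high in several retinas with high sparse markers. The summed CPM of 13 rod genes was 295 to 5964 in moderate, 438 to 763 in mild and 706 to 1834 in severe retinas, against 244 to 20921 in Gpnmb+ retinas. The moderate eye of animal 1, with the highest Lyz2, Ms4a7 and Pf4 of the series, had a rod sum of 5964 CPM, and its severe partner 868 CPM. The moderate eye of animal 5 had a rod sum of 3702 CPM and its mild partner 618 CPM. The Gpnmb+ retina with the highest Mrc1 (99.8 CPM) had a rod sum of 7300 CPM, and its partner eye, with no Mrc1 count in the shallowest library, one of 20921 CPM. Over the 15 animals, the genes whose levels ranked most like Mrc1 by Spearman's correlation included Gnb1 (0.94), a G protein subunit abundant in rods, Pf4 (0.89), Use1 (0.87) and Dab2 (0.85). The part of rod RNA in the levels of Mrc1 and the other sparse markers was not tested. The summed microglia markers of the moderate eyes of animals 1 and 5 were 19122 and 23596 CPM, against 40013 and 42095 CPM in the partner eyes. Their mitochondrial shares were 2.98% and 2.34%, against 1.43% and 1.58% in the partner eyes.

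**Figure D5:**
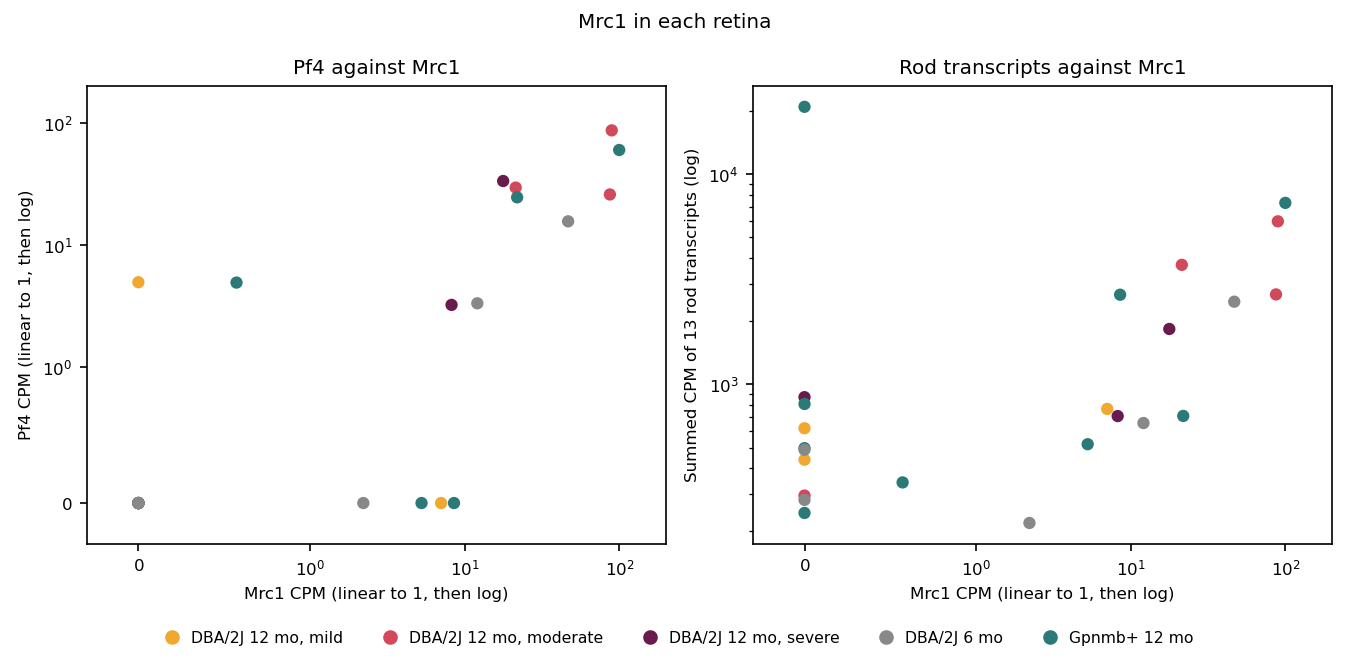
Mrc1 CPM in each of the 24 retinas against Pf4 CPM (left) and against the summed CPM of 13 rod transcripts (right), coloured by group and grade. Mrc1 and Pf4 axes are linear up to 1 and logarithmic above, and the rod axis is logarithmic. Mrc1 and Pf4 were found together in 10 retinas, and the retina with the most Mrc1 has a rod sum of 7300 CPM, while 1 retina with a rod sum of 20921 CPM has no Mrc1 count.

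The genes that ranked most like Lyz2 over the 15 animals were H2-K1 (Spearman's correlation 0.93), Rpl15 (0.91), Gm10020 (0.90), H2-K2 (0.90) and H2-Q7 (0.90). H2-K1, H2-K2 and H2-Q7 belong to the class I histocompatibility genes, which share sequence with one another. Among the other markers, the closest to Lyz2 were Ms4a7 (0.64) and F13a1 (0.60), and Ccr2 was at -0.29. These are descriptions over animals of 3 groups, without a test.

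Further markers of the same cells gave a mixed picture. Of 20 other genes of border-associated macrophages, 10 were tested in 12-month DBA/2J against Gpnmb+, with 6 positive, beside 6808 of all 12977 genes. At an unadjusted p under 0.05, where 2.76% of all genes were higher and 2.45% lower, 1 was higher and none lower. That gene was Wfdc17, a secreted inhibitor family member of activated macrophages. Wfdc17 averaged 48.7 ± 23.8 CPM in 12-month DBA/2J and 12.1 ± 12.8 CPM in Gpnmb+ (SD, n = 5 animals each), with an adjusted p of 0.953 by edgeR. The 4 Gpnmb+ retinas with at least 10000 genes had 8.42, 8.18, 36.5 and 33.5 CPM of Wfdc17. In 12-month DBA/2J retinas Wfdc17 had 0 to 126 CPM with a median of 46.4 CPM, so single retinas overlapped. Ms4a6c, of the same family as Ms4a4c, averaged 53.6 ± 15.7 CPM in 12-month DBA/2J and 12.6 ± 13.4 CPM in Gpnmb+ (SD, n = 5 animals each). All 5 of the DBA/2J animals lay above every Gpnmb+ animal for Ms4a6c, as for 0.832% of all genes, and its adjusted p was 0.999 by edgeR. Ms4a6c had no count in 4 of 9 Gpnmb+ retinas. The 4 Gpnmb+ retinas with at least 10000 genes had 0 to 33.5 CPM with a median of 25.3 CPM. The 12-month DBA/2J retinas had 7.65 to 146 CPM with a median of 43.9 CPM, so single retinas overlapped. Ms4a6d averaged 141 ± 42.2 CPM in 12-month DBA/2J and 62.5 ± 39.5 CPM in Gpnmb+ (SD, n = 5 animals each). In the 4 Gpnmb+ retinas with at least 10000 genes Ms4a6d had 44.0 to 159 CPM with a median of 60.8 CPM. The 12-month DBA/2J retinas had 51.5 to 238 CPM of Ms4a6d with a median of 133 CPM. Lyve1, the hyaluronan receptor of perivascular macrophages, had a count in 3 of 24 retinas, and Cd209f in none. Against 6-month DBA/2J, 7 of the same 10 were positive. Wfdc17 again was the 1 at an unadjusted p under 0.05, where 2.10% of all genes were higher and 1.55% lower. Of 20 other monocyte genes 4 were tested, all positive against Gpnmb+ and 3 of them positive against 6 months. None was at an unadjusted p under 0.05 in either comparison, beside the same shares of all genes. Chil3 and Hp had no count in any retina.

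Summed markers of other blood and retinal cells ran from near 0 for lymphocyte genes to 20921 CPM for rod genes in Gpnmb+. None of these genes passed by edgeR, as no gene did. The neutrophil genes S100a8, S100a9, Retnlg and Ly6g had no count in any retina, and the summed neutrophil list, 99.1 to 574 CPM in 12-month DBA/2J and 2.05 to 593 CPM in Gpnmb+, was mostly Csf3r, which microglia also express. Summed lymphocyte genes reached at most 2.17 CPM in any retina, and Nkg7 had no count. The summed platelet list was 0 to 68.0 CPM with a median of 46.6 CPM in 12-month DBA/2J and 0 to 36.0 CPM with a median of 4.96 CPM in Gpnmb+. Gp9, a subunit of the platelet receptor for von Willebrand factor, alone had medians of 45.2 CPM and 4.965 CPM in these retinas. The 4 Gpnmb+ retinas with at least 10000 genes had 12.8, 25.7, 13.3 and 36.0 CPM of Gp9. The 5 with fewer genes had 0 to 4.965 CPM, so the Gpnmb+ medians of Gp9 and of the platelet list lean on those libraries. Per animal Gp9 averaged 41.3 ± 12.5 CPM in 12-month DBA/2J and 11.9 ± 11.6 CPM in Gpnmb+ (SD, n = 5 animals each). In 12-month DBA/2J 4 of 5 animals lay above every Gpnmb+ animal, with an adjusted p of 0.975 by edgeR. The retinas with the most Pf4, at 86.7, 59.9 and 33.4 CPM, had 3.41, 0 and 38.3 CPM of Gp9. The part of platelet RNA in the level of Pf4 was not tested. Of the 3 tested platelet genes Clec1b was higher at an unadjusted p under 0.05 in 12-month DBA/2J against Gpnmb+, as 2.76% of all genes were. Its adjusted p was 0.574 by edgeR, and in the 3 sums of moderate eyes Clec1b had no count. Dendritic cell genes summed to at most 61.6 CPM in 12-month DBA/2J and 116 CPM in Gpnmb+, with Ccr7 at 0 in all retinas, and endothelial genes to at most 35.7 CPM in 12-month DBA/2J and 146 CPM in Gpnmb+, with Cldn5 and Tek at 0. In 12-month DBA/2J against Gpnmb+, 6808 of all 12977 genes were positive. In the same comparison 1 of 3 tested dendritic genes, 1 of 2 endothelial genes, 0 of 1 neutrophil gene, 3 of 3 platelet genes and 1 of 13 rod genes were positive. No lymphocyte gene was tested. Of 15 microglia genes 10 were positive. At an unadjusted p under 0.05 were 3, all higher, namely Olfml3, Tmem119 and Trem2, beside 2.76% of all genes higher and 2.45% lower.

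Reads can be shared with close relatives of 2 markers. Of the 50-base stretches in Lyz2 transcripts 15.4% also occur in Lyz1, its neighbour and paralog, and of those in Ms4a4c 8.19% occur in Ms4a4b or Ms4a4d. Lyz1 reached at most 1.00 CPM in any retina, Ms4a4b 2.46 CPM, and Ms4a4d had no count. For Ccr2 the share was 1.91%, and for the other 7 markers it was at most 0.306%. Ms4a4c (chr19:11404770-11427246, plus strand) and Ms4a7 (chr19:11321039-11336146, minus strand) lie close together on chromosome 19 of GRCm38. The other markers lie apart, with Mrc1 at chr2:14229392-14332057 (plus), Pf4 at chr5:90772435-90773383 (plus), Cd163 at chr6:124304656-124330527 (plus), Folr2 at chr7:101839988-101857194 (minus) and Ccr2 at chr9:124101950-124113557 (plus). F13a1 lies at chr13:36867178-37050244 (minus) and Stab1 at chr14:31139013-31168641 (minus).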

How the data were processed

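RNA of sorted retinal microglia was sequenced with 1 library per retina (24 retinas, 15 animals). The values used were expected counts per gene, estimates of read numbers that can hold decimals, and TPM, both deposited by the authors in a table for each retina and identified per the file headers. From the submitters' processing notes come mm10 as the build and the tools Salmon 1.4.0, R 4.0.3 and DESeq2 1.30.1, with no role stated. The sources used here do not give the annotation release or filters. A deposited FPKM table was not used, with its 24 columns of per-sample values that were not matched to samples. How reads matching several genes were shared out affects paralogs most.

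Before testing, the expected counts were rounded to integers. CPM per retina are counts per 1000000 of the library total, and CPM per animal are also TMM-scaled. Eyes of an animal, or of an animal and grade, were summed, so that the animal was the replicate. In the grade fits animals 1 and 5 entered as 2 sums each, taken as independent. Tests used edgeR 4.0.16 in R 4.3.3 (quasi-likelihood F test, two-sided, TMM scaling, filterByExpr at its minimum count 10 and minimum total 15), with p-values adjusted by Benjamini and Hochberg over all genes tested and a threshold of 0.05. The 3 group comparisons shared 1 fit, as did the 3 grade comparisons, and a trend used the grades in order. All 10 markers passed the filter. The SE of an edgeR fold change was derived from the test, as the size of the log2 fold change over the square root of F. It is a rough guide for sparse markers. The script was tested on simulated counts. Alternatives were RLE scaling, DESeq2 1.42.0, omitting the filter, retinas with a random animal effect (limma 3.58.1), leaving out retinas under 10000 genes, the animal number as a block, each animal left out in turn, a count floor for detection, and TPM in place of CPM. Detection without the retinas under 10000 genes was added after seeing the data.

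Named are the 10 markers, the genotype and sort genes, possible paralogs, up to 4 genes of each cell type list with the smallest p, and the 5 genes most like Lyz2 and Mrc1, and a few genes under this rule are not reported here. Lyve1 and the genes named as having no count were picked with their values in view. The markers and lists were chosen with earlier results of these data known. Coordinates are from the GRCm38 annotation, the build that mm10 names, and upstream sequences from RefSeq (GRCm38.p6), cut to the bases before the annotated gene start. The labels gave group, animal, eye and grade. Same-numbered animals of different groups did not deviate together (15 pairs, correlations of -0.0462 to 0.0884), so the numbers do not pair groups. No library was counted as a duplicate, since chi-square per degree of freedom was at least 81.8 over 91 within-group pairs of retinas.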

Additional observations from a re-analysis of the deposited data

Results flagged for a closer look

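Over the 10 markers and 3 groups, 9 of 30 groups of 5 animals held 1 animal far from the other 4 by Dixon's test, where chance gives about 1 in 20 for values with a normal spread. These CPM are skewed and often 0, so that rate does not hold here, and a single count among 4 zeros, as for Cd163 at 6 months, always meets the criterion. All CPM here are TMM-scaled and per animal. The 6-month DBA/2J animal 1 stood apart for 5 markers, with Ms4a7 at 13.3 CPM against at most 3.73 CPM in the other 4, Mrc1 at 42.4 against 10.9 CPM, F13a1 at 16.4 against 0.807 CPM, Pf4 at 14.2 against 3.03 CPM and Cd163 at 3.58 CPM against 0. That animal's rod sum was 2472 CPM, the highest of its group, and whether the rod RNA has a part in these values was not tested.

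In 12-month DBA/2J, animal 5 stood apart for Ccr2 at 39.1 CPM against at most 7.53 CPM, and animal 2 for F13a1 at 47.9 against 6.71 CPM. Among Gpnmb+ animals, animal 2 stood apart for Mrc1 at 74.7 against 16.6 CPM, and animal 5 for F13a1 at 0.758 against 0.0908 CPM. No value of Lyz2, Ms4a4c, Folr2 or Stab1 stood apart in this way.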

How the results depend on the processing

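No gene passed in any comparison with edgeR, RLE scaling or without the retinas under 10000 genes. DESeq2 called 108 genes in 12-month DBA/2J against Gpnmb+, 60 against 6 months, 57 in 6-month DBA/2J against Gpnmb+, 596 in mild, 296 in moderate and 280 in severe against Gpnmb+, and 22 in the trend. Without a filter on low counts edgeR called 2 genes in 12 against 6 months, 31 in mild, 33 in moderate, 10 in severe and 6 in the trend. Retinas with a random animal effect gave 10, 10 and 41 calls in the 3 group comparisons, 3, 13 and 31 in mild, moderate and severe, and 3 in the trend. With the animal number as a replicate block there were 4 calls in moderate and 1 in severe, and 0 in the other 5 comparisons. The causes of these counts were not tested. With each animal left out in turn, calls ranged from 0 to 1 in 12-month DBA/2J against Gpnmb+ (1 without 12-month animal 5), 0 to 2 in mild (2 without animal 4) and 0 to 4 in moderate (4 without animal 5, 2 without Gpnmb+ animal 5, 1 without animal 2), and were 0 in the others. Lyz2 was the single marker called by any alternative, by DESeq2 in 3 comparisons and without a filter in moderate.

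The direction of a marker often depended on the setting. Over 70 fold changes of 10 markers in 7 comparisons, 33 turned under at least 1 alternative, in 82 of 1369 refits (1 refit gave no value for Cd163). Lyz2 turned in the trend alone (3 refits), Ms4a4c, F13a1 and Pf4 in 2 comparisons each, Cd163 in 1, Ms4a7 and Stab1 in 4, Mrc1 in 5, and Ccr2 and Folr2 in 6. With a random animal effect the log2 fold change turned for Folr2 (0.20) in 12-month DBA/2J against Gpnmb+, for Ccr2 (-0.74), Ms4a4c (-0.54) and Folr2 (-0.089) in 12 against 6 months, for Ms4a7 (0.52), Folr2 (0.29) and Stab1 (0.90) in 6-month DBA/2J against Gpnmb+, for Ms4a4c (3.46) in mild, for Mrc1 (0.77), Pf4 (1.75) and Stab1 (0.59) in severe, and for Ccr2 (-0.068) and Ms4a7 (-0.14) in the trend. Without the retinas under 10000 genes it turned for Stab1 (-0.17) in 12-month DBA/2J against Gpnmb+, Mrc1 (0.46) in 6-month DBA/2J against Gpnmb+, Ccr2 (-0.50) and Ms4a7 (-0.56) in mild and Ccr2 (-0.39) in severe. With the replicate block it turned for Folr2 (0.39), Ccr2 (-0.26) and Stab1 (0.41) in the 3 group comparisons in order, for Ccr2 (-0.53), Ms4a4c (1.88) and Mrc1 (3.88) in mild, and for Lyz2 (-0.39), Mrc1 (-0.94) and Pf4 (-3.65) in the trend. RLE scaling, DESeq2 and no filter turned no marker.

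With each animal left out in turn, the fold changes that turned ranged as follows. In 12-month DBA/2J against Gpnmb+ they were Ccr2 -0.069 to 1.57 (lowest without animal 5), Mrc1 -0.36 to 2.32 (lowest without animal 2) and Folr2 -0.61 to 0.52. In 12 against 6 months they were Ccr2 -0.89 to 0.60, F13a1 -0.053 to 5.63, Folr2 -0.091 to 0.91 and Cd163 -0.87 to 6.70. In 6-month DBA/2J against Gpnmb+ they were Ms4a7 -1.64 to 0.31, Mrc1 -2.48 to 1.19, Folr2 -0.98 to 0.085 and Stab1 -0.29 to 0.36. In mild they were Ccr2 -0.035 to 0.68, Ms4a4c -0.66 to 1.66, Ms4a7 -1.16 to 1.21, Folr2 -1.90 to 0.016 and Stab1 -0.21 to 1.10. In moderate Ccr2 ranged from -1.71 (without animal 5) to 2.70. In severe they were Ms4a7 -0.47 to 2.20, Mrc1 -11.0 to 0.28, Pf4 -10.4 to 0.73, Folr2 -7.23 to 0.043 and Stab1 -1.91 to 0.36. In the trend they were Lyz2 -0.57 to 0.54, Ccr2 -0.54 to 0.87, Ms4a7 -1.51 to 2.50, Mrc1 -1.83 to 4.42, F13a1 -0.064 to 7.62, Pf4 -1.18 to 2.59 and Folr2 -0.72 to 0.46. Where this left a group with 1 sum, its spread was taken to be that of the other groups.

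Markers were found 159 times over the 24 retinas, 133 times at or above 3.07 CPM and 140 times without the retinas under 10000 genes. A 0 shows less in the 5 Gpnmb+ retinas with fewer than 10000 genes. These were set apart by genes detected and not by library total. The left eye of Gpnmb+ animal 1 had 7855043 expected counts and 9341 genes. That of 12-month DBA/2J animal 4 had 1706775 expected counts and 10703 genes.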

Other observations

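Stab2, the paralog of Stab1 that is known from liver and lymphatic endothelium, had a count in 24 of 24 retinas, at 35.1 to 326 CPM in 12-month DBA/2J, 135 to 379 CPM in 6-month DBA/2J and 49.0 to 348 CPM in Gpnmb+. The other paralogs were low or absent, with Folr1 at no more than 0.499 CPM and Cd163l1 with no count. Ms4a6b, a family member of Ms4a4c and Ms4a7, ranged from 0.586 to 124 CPM in 12-month DBA/2J and from 0 to 607 CPM in Gpnmb+. The 607 CPM came from the shallowest library, and the other 8 Gpnmb+ retinas reached at most 60.7 CPM.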
